A study of Mus musculus with 6 samples.

Results

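MHC class I antigen presentation genes were compared between the parental (P) and axitinib-resistant (AxR) forms of 4T1, a mouse mammary carcinoma line that arose in Balb/c mice. The genes were taken by name, with earlier results of these data known. They are H2-K1, H2-D1, H2-M3, every gene whose symbol starts with H2-Q or H2-T, and 18 named genes of peptide processing and loading. The rule found 35 of the 53465 genes in the file, namely 2 classical heavy chains, 15 non-classical heavy chains and 18 processing genes. Of these, 33 passed the low-count filter that left 13550 genes to test. The other two were H2-Q3, a pseudogene with no count in any library, and H2-T3, with 0 counts in every P library and 1, 0 and 2 counts in the AxR libraries.

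Messenger RNA was sequenced from 3 P and 3 AxR libraries, and the deposited values were estimated counts per gene. AxR cells were grown out of metastatic disease that arose after tumor surgery in mice given axitinib, an inhibitor of the VEGF receptors, at 100 mg/kg/day, and were then kept in culture with 0.5 μM axitinib for over 2 months. P cells had no axitinib by their treatment labels and by the paper, which calls them vehicle-treated, although the growth label names 0.5 μM axitinib for all 6 samples. Each form is 1 line, so a difference between P and AxR is a difference between these 2 lines. Nothing says that the 3 samples of a line were separate cultures, so p-values measure only the spread between these samples, which may be technical. Library totals lay between 15495260 and 17294525 estimated counts, and a count of 3 corresponded to 0.171 to 0.196 CPM, counts scaled to the normalized library size. Over all genes tested, 63.5% differed between the lines at a threshold of 0.05 for the adjusted p, with 4441 higher and 4167 lower in AxR cells, and the median log2 fold change was 0.0058.

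MHC class I molecules carry peptides from inside a cell to its surface, where CD8 T cells and natural killer cells read them. The proteasome cuts proteins into peptides, the TAP transporter moves the peptides into the endoplasmic reticulum, and a loading complex of chaperones places them on a heavy chain paired with beta-2 microglobulin. Classical heavy chains present to T cells, whereas non-classical chains present narrower sets of ligands or bind receptors of natural killer cells. Interferon signalling, NF-kappa B and the transactivator NLRC5 are known to act on the promoters of many of these genes.

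The promoter stretches shown here are those of heavy chain and light chain genes that were higher in AxR cells. Capitals mark only exact matches to the interferon core and the kappa B palindrome given below. Other spellings of interferon and NF-kappa B elements were not marked, so letters in lower case may still hold such an element. RefSeq windows on GRCm38.p6, running from 250 bases before to 50 bases after a start, were at hand for 26 of the 35 genes, in 28 windows. The classical kappa B palindrome of mouse class I genes, printed in capitals in the lines that follow, was found on searching both strands in the windows of H2-K1, H2-D1 and H2-Q6. It stood in 10 of all 32851 windows, a share of 0.0304%, and 4 of those 10 windows belonged to these 3 genes, H2-K1 having a window for each of 2 starts. Each line is read in the direction of the gene.
H2-K1, chr17:34000438-34000467, minus strand: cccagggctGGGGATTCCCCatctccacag
H2-D1, chr17:35262914-35262943, plus strand: cccagggctGGGGATTCCCCatctcctcag
H2-Q6, chr17:35424668-35424697, plus strand: cccatggctGGGGATTCCCCatctccccag
The bases around the palindrome were nearly the same in these 3 paralogous genes. The site lay 111 bases before the nearer of the starts that RefSeq gives H2-K1, 171 bases before that of H2-D1 and 173 bases before that of H2-Q6, and the H2-D1 site fell within the 5′ exon of another transcript of the gene in GENCODE.

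The core of the interferon-stimulated response element, spelled as GAAA followed by any 2 bases and a second GAAA and searched on both strands, was present in the windows of B2m, H2-T22, H2-T23, Erap1 and Psme1. These were 17.9% of the windows of the class I genes, against 3.44% of all 32851 windows. In the lines below the capitals mark the core, which reads as TTTC blocks where it sits on the opposite strand. The H2-T23 core lay before the start that RefSeq gives the gene, but within the longer span that GENCODE gives it.
B2m, chr2:122147538-122147567, plus strand: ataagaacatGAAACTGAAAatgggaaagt
H2-T22, chr17:36042914-36042943, minus strand: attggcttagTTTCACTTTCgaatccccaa
H2-T23, chr17:36032806-36032835, minus strand: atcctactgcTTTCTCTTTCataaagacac
Longer stretches upstream of H2-K1 and B2m show how these elements are placed, again with the palindrome and the core in capitals.
H2-K1, chr17:34000348-34000547, minus strand: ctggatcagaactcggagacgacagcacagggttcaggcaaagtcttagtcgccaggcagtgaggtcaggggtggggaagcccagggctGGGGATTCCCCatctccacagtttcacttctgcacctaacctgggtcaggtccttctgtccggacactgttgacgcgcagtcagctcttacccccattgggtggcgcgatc
B2m, chr2:122147487-122147685, plus strand: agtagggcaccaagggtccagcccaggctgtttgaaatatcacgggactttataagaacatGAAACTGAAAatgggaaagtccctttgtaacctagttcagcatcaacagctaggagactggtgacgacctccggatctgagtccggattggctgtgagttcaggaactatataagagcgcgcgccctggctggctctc
A match of letters is a description and no evidence of binding. Other motifs were more widespread. TGACG, part of the site bound by CREB family factors, was in 57.1% of the class I windows and 20.8% of all windows, and CCAAT, the site of NF-Y, in 64.3% and 37.4%. The gamma-activated sequence TTCNNNGAA was in 7.14% of class I windows and 8.30% of all windows, and the general kappa B pattern, GGG and CC with any 5 bases between, which also takes in the palindrome, in 64.3% and 50.8%.

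Of the 33 class I genes tested, 30 rose and 0 fell in AxR cells at the threshold of 0.05 (quasi-likelihood F test of edgeR, p-values adjusted by Benjamini-Hochberg over all genes tested). For comparison, 32.8% of all genes tested were higher and 30.8% were lower. No class I gene was lower with an unadjusted p under 0.05, and 0 were called lower by DESeq2 or limma-voom. The median log2 fold change of the class I genes was 1.22. With an adjusted p under 0.05 also required, 22 were at least 2-fold higher and 0 at least 2-fold lower. The same held for 7.99% and 4.72% of all genes tested. The libraries of the 2 lines did not overlap for 30 of these genes, all with AxR above P, against 35.1% of all genes tested in that direction and 68.3% in either. H2-M3, Canx and Psmb7 made up the 3 genes that did not pass the test. In bulk RNA, a change in the number of cells that express a gene and a change in RNA per cell cannot be told apart.

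By class, both classical heavy chains rose, with a median log2 fold change of 0.86. Of the 13 non-classical heavy chains tested 12 rose, with a median of 1.49, and of the 18 processing genes 16 rose, with a median of 1.18. The processing genes spanned the widest range, from 0.07 for Psmb7 to 3.74 for Psmb9. At least 4-fold increases were found in 7 genes, Psmb9, Psmb8, H2-T23, Tap2, Tapbp, H2-T-ps and Tap1, and neither classical heavy chain was among them. The value of H2-T-ps is uncertain, since it shares sequence with H2-T23. Of all genes tested, 2.77% had a log2 fold change of at least 2 with an adjusted p under 0.05, as all 7 of these genes had.

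**Figure D1:**
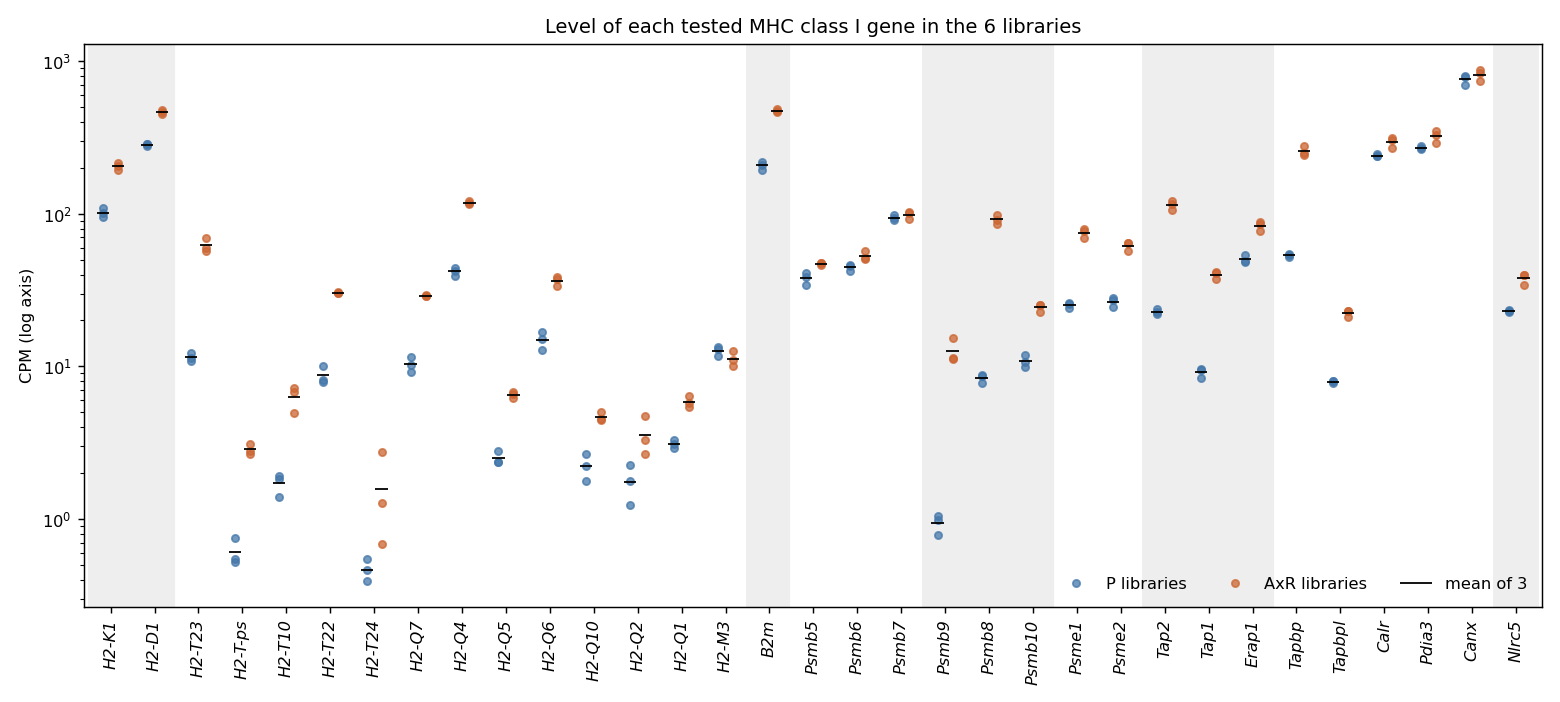
Level of each of the 33 tested MHC class I genes in CPM on a log axis, with 1 point per library (P in blue, AxR in orange), a black bar for the mean of 3, and shading to separate roles. P and AxR points overlap for H2-M3, Psmb7 and Canx, and for each of the other 30 genes the 3 AxR points lie above the 3 P points.

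H2-K1 and H2-D1 encode the classical heavy chains, which present peptides to CD8 T cells. H2-K1 stood at 109, 101 and 96.0 CPM in P libraries and at 206, 194 and 215 CPM in AxR libraries. H2-D1 was at 286, 287 and 279 CPM in P and at 451, 478 and 466 CPM in AxR libraries. For both genes, the lowest AxR library was well above the highest P library. The log2 fold change was 1.01 (SE 0.0589, edgeR adjusted p = 1.32e-09) for H2-K1 and 0.71 (SE 0.0455, edgeR adjusted p = 3.47e-09) for H2-D1. Per kilobase of exon, H2-D1 had the higher level in both lines, at 110 ± 1.75 CPM per kb in P and 180 ± 5.27 CPM per kb in AxR cells (SD, n = 3 each), against 34.7 ± 2.22 and 69.8 ± 3.58 CPM per kb for H2-K1.

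Between these paralogues the balance shifted towards H2-K1. Its share of the summed level of both per kb was 25.0%, 23.6% and 23.2% in P libraries and 28.6%, 26.3% and 28.8% in AxR libraries, so that the lines did not overlap. The log2 ratio of H2-K1 to H2-D1 was 0.30 higher in AxR cells, at -1.48 ± 0.0749 in P and -1.18 ± 0.102 in AxR (SD, n = 3 each). The exact two-sided permutation test gave p = 0.1, which is the smallest p that 3 against 3 libraries allow. It was not adjusted over the 4 pairs of genes compared in this way. By sequence, 9.63% of the 50-base windows of H2-K1 transcripts and 12.8% of those of H2-D1 also occurred in other genes.

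Assignment of reads among heavy chain genes carries a limit of its own. Reads were aligned to the C57BL/6 reference, while 4T1 cells come from Balb/c mice, which have another MHC haplotype and an additional classical gene, H2-L, that this reference lacks. The effect on the counts of single H2 genes was not tested. Summed over the 15 tested heavy chain genes and both untested ones, heavy chain level was 511, 504 and 480 CPM in P libraries and 965, 1002 and 999 CPM in AxR libraries. The sum does not depend on how reads were divided among these genes. It rose by 0.99 on the log2 scale (SE 0.0459, edgeR adjusted p = 1.19e-10).

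The H2-Q genes encode non-classical or class Ib heavy chains, among them the Qa-2 antigens of H2-Q6 and H2-Q7. All 7 of the H2-Q genes tested rose, with log2 fold changes from 0.91 to 1.49. H2-Q4 had the highest level of this group, at 42.3, 44.0 and 39.4 CPM in P libraries and 116, 117 and 120 CPM in AxR libraries, a log2 fold change of 1.49 (SE 0.0576, edgeR adjusted p = 1.46e-11). H2-Q7 rose by the same 1.49 (SE 0.0891, edgeR adjusted p = 1.63e-09), from 10.3, 11.6 and 9.13 CPM to 29.4, 29.02 and 29.01 CPM. H2-Q6 was at 16.8, 15.1 and 12.8 CPM in P and at 33.4, 37.6 and 38.6 CPM in AxR libraries, a log2 fold change of 1.29 (SE 0.0951). In each of these 3 genes the AxR mean was over 2 times the P mean.

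The remaining H2-Q genes were near the low end of what was tested. H2-Q5, a polymorphic pseudogene in the annotation, rose by 1.38 from 2.50 ± 0.239 to 6.54 ± 0.284 CPM (SD, n = 3 each). H2-Q10, known as a liver-secreted chain, had a log2 fold change of 1.07 at 2.21 ± 0.447 against 4.66 ± 0.303 CPM. H2-Q2 had one of 1.00 at 1.75 ± 0.507 against 3.56 ± 1.03 CPM, and H2-Q1 one of 0.91 at 3.11 ± 0.179 against 5.85 ± 0.514 CPM. EdgeR adjusted p-values of these 4 genes lay between 1.34e-06 for H2-Q5 and 0.0033 for H2-Q2, which had the widest spread in AxR libraries. Of the 50-base windows of H2-Q5 36.4% occurred in other genes, as did 32.0% of those of H2-Q6. In the other tested H2-Q genes the share ran from 15.0% for H2-Q1 to 26.4% for H2-Q7, with 21.8% for H2-Q4. Reads may have been split among all these genes.

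The H2-T genes rose most among the heavy chains, with all 5 tested higher and a median log2 fold change of 1.88. H2-T23 encodes Qa-1, which presents leader peptides of other class I chains to the CD94/NKG2A receptor of natural killer cells. It stood at 11.4, 10.8 and 12.3 CPM in P libraries and at 57.4, 69.2 and 60.0 CPM in AxR libraries. Its log2 fold change was 2.44 (SE 0.0888, edgeR adjusted p = 8.00e-12), or 5.41-fold. Of the 50-base windows of H2-T23 13.6% occurred in other genes, most often in H2-T-ps. Per kb, H2-T23 lay below H2-M3 in P cells and above it in AxR cells, at 3.98 ± 0.267 and 21.5 ± 2.15 against 8.80 ± 0.605 and 7.81 ± 0.865 CPM per kb (SD, n = 3 each).

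H2-T22 and H2-T10 encode chains known as ligands of gamma delta T cells, and the annotation marks H2-T10 as a polymorphic pseudogene. H2-T22 rose from 10.09, 8.20 and 7.89 CPM to 30.3, 30.8 and 30.2 CPM, a log2 fold change of 1.80 (SE 0.0928, edgeR adjusted p = 3.24e-10). H2-T10 rose by 1.88 (SE 0.201, edgeR adjusted p = 1.01e-06), at 1.40, 1.91 and 1.83 CPM in P and 7.18, 6.82 and 4.95 CPM in AxR libraries. These 2 genes share 34.5% of the windows of H2-T22 and 32.9% of those of H2-T10 with other genes, mostly with each other, so their separate values are uncertain. The pseudogene H2-T-ps had a log2 fold change of 2.22 (SE 0.267) at 0.606 ± 0.126 against 2.86 ± 0.234 CPM (SD, n = 3 each). Of its windows 29.4% occurred in other genes, most often in H2-T23, so its value is uncertain as well. H2-T-ps and H2-T10 also overlap the protein-coding gene Gm7030 on the same strand.

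H2-T24 was the least certain call. It was at 0.547, 0.462 and 0.391 CPM in P libraries and at 1.27, 2.74 and 0.683 CPM in AxR libraries, with a log2 fold change of 1.71 (SE 0.491, edgeR adjusted p = 0.008). One AxR library, replicate 2, held the highest value, and without it the log2 fold change was 1.04 and the adjusted p 0.0569. H2-T24, H2-T23 and H2-T22 overlap the antisense gene A930015D03Rik, and the kit marks strand but whether counting used it is not given in the sources used here.

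H2-M3 presents peptides with an N-formyl end and lies farther out on chromosome 17. It stood at 13.31, 12.99 and 11.67 CPM in P libraries and at 10.097, 12.56 and 11.04 CPM in AxR libraries. The lines overlapped, and H2-M3 was the heavy chain that did not pass the test, with a log2 fold change of -0.17 (SE 0.107, edgeR adjusted p = 0.168). Its counts were whole numbers in all libraries, and 0.576% of its windows occurred in other genes.

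With these changes the make-up of the heavy chain pool differed between lines. Classical chains were 75.6%, 75.2% and 76.6% of the summed heavy chain level per kb in P libraries and 67.5%, 66.5% and 67.6% in AxR libraries. The AxR libraries thus lay below the P libraries by several percentage points, and most of the pool was classical in both lines.

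B2m encodes beta-2 microglobulin, the light chain that class I heavy chains need to reach the cell surface. B2m stood at 220, 195 and 210 CPM in P libraries and at 462, 489 and 469 CPM in AxR libraries. The log2 fold change was 1.19 (SE 0.0527, edgeR adjusted p = 6.60e-11). Per kb of exon it was the most abundant class I transcript in both lines, at 242 ± 14.6 and 550 ± 16.3 CPM per kb (SD, n = 3 each). The ratio of B2m to the summed heavy chains per kb was 1.302, 1.167 and 1.328 in P libraries and 1.48, 1.503 and 1.452 in AxR libraries, again without overlap. Its level rests on the division by union exon length, since in CPM the summed heavy chains stood above B2m in every library. None of the 50-base windows of B2m occurred in another gene, but the gene lies within Patl2 on the opposite strand.

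**Figure D2:**
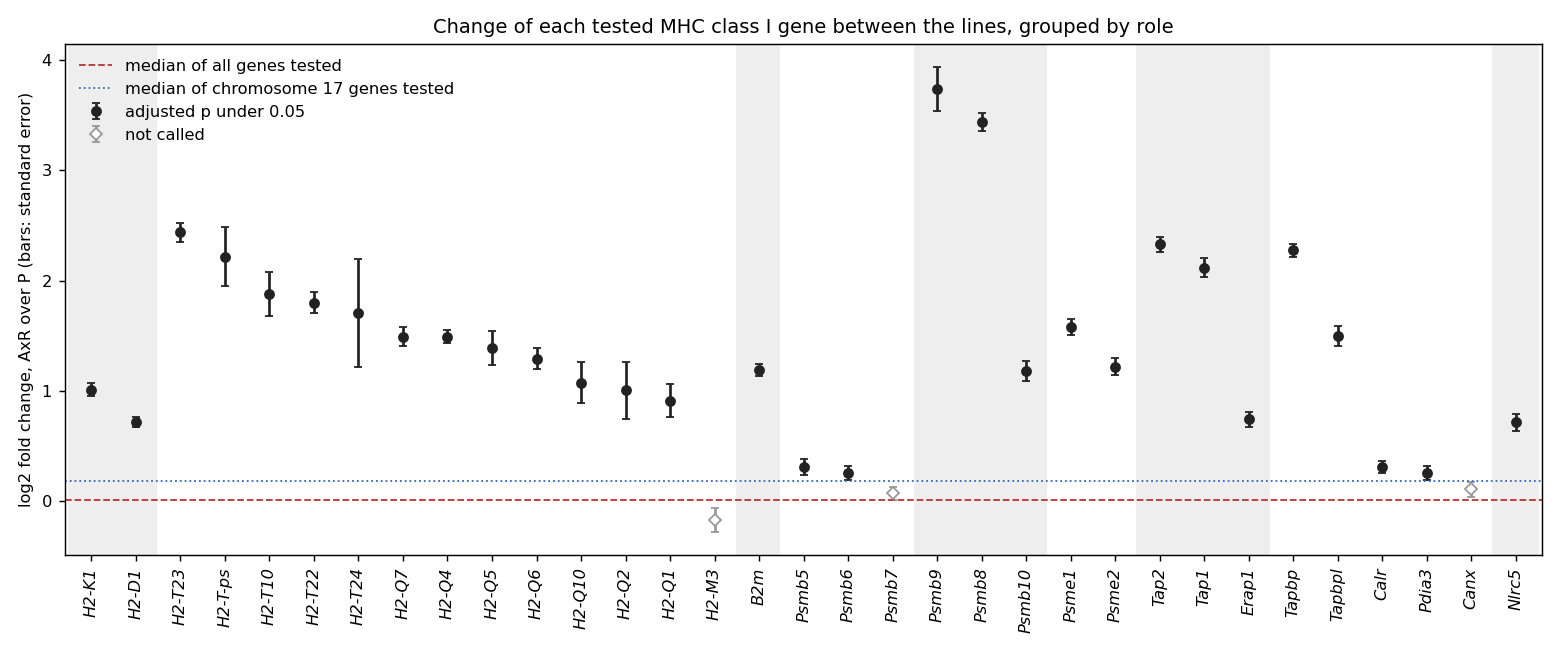
Log2 fold change of AxR over P for the 33 tested class I genes, grouped by role, with bars for the standard error, filled circles for an adjusted p under 0.05 and open diamonds for genes not called. Dashed and dotted lines mark the median of all genes tested, 0.0058, and of tested genes of chromosome 17, 0.18; Psmb9 and Psmb8 stand highest at 3.74 and 3.44, and H2-M3, Psmb7 and Canx are the open symbols.

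Within the proteasome, inducible and constitutive catalytic subunits changed by different amounts. Psmb5, Psmb6 and Psmb7 encode the catalytic subunits of the constitutive proteasome, and Psmb8, Psmb9 and Psmb10 the inducible subunits that replace them in the immunoproteasome. The 3 immunoproteasome genes rose by 1.18 to 3.74 on the log2 scale, against 0.07 to 0.31 for the 3 constitutive genes.

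Psmb8 stood at 7.78, 8.72 and 8.80 CPM in P libraries and at 91.7, 98.1 and 85.6 CPM in AxR libraries. Its log2 fold change was 3.44 (SE 0.0812, edgeR adjusted p = 7.77e-14), or 10.9-fold. Psmb9 rose 13.4-fold, from 0.790, 0.982 and 1.04 CPM to 11.1, 15.4 and 11.4 CPM, a log2 fold change of 3.74 (SE 0.198, edgeR adjusted p = 4.23e-10). Among all genes tested these ranked 136 and 119 by log2 fold change. Psmb10 rose less, from 9.85, 11.9 and 10.6 CPM to 25.1, 22.8 and 25.4 CPM, with a log2 fold change of 1.18 (SE 0.0915, edgeR adjusted p = 3.09e-08). In each of the 3 genes every AxR library was above every P library.

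The constitutive subunits moved little. Psmb5 had a log2 fold change of 0.31 (SE 0.0717, edgeR adjusted p = 0.00162), at 34.3, 41.1 and 38.5 CPM in P and 47.5, 47.5 and 45.9 CPM in AxR libraries. Psmb6 had one of 0.25 (SE 0.0663, edgeR adjusted p = 0.00393), at 42.4, 46.0 and 45.6 CPM against 50.9, 57.1 and 51.6 CPM. For both the lines did not overlap, although the gaps were small. Psmb7 was at 90.6, 98.4 and 93.9 CPM in P and 104, 101 and 92.7 CPM in AxR libraries, so that the lines overlapped and the log2 fold change of 0.07 (SE 0.0576, edgeR adjusted p = 0.319) did not pass. Of the windows of Psmb5 54.1% occurred in other genes, among them Psmb5-ps and Gm3375, and Psmb7 overlaps Nek6 on the opposite strand.

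Each inducible subunit was set beside the constitutive subunit it replaces. Psmb8 was 5.68%, 5.35% and 5.73% of the summed Psmb8 and Psmb5 level per kb in P libraries and 33.9%, 35.4% and 33.2% in AxR libraries. Psmb9 was 0.944%, 1.08% and 1.16% of the sum with Psmb6 in P libraries and 10.05%, 12.1% and 10.2% in AxR libraries. Psmb10 was 17.9%, 19.5% and 18.5% of the sum with Psmb7 in P libraries and 32.7%, 31.3% and 35.5% in AxR libraries. In all 3 pairs the share of the inducible subunit was higher in every AxR library, and per kb the constitutive transcript remained the larger one. That order rests on the division by union exon length for Psmb8, whose log2 ratio to Psmb5 in CPM, with no such division, went from -2.10 ± 0.0585 in P to 0.96 ± 0.0743 in AxR libraries (SD, n = 3 each). The log2 ratio of the pair was higher in AxR cells by 3.06 for Psmb8 to Psmb5, by 2.93 for Psmb9 to Psmb6 and by 1.08 for Psmb10 to Psmb7, each with an exact two-sided permutation p = 0.1, the smallest possible. These ratios used a pseudocount of 0.5 CPM, which is large beside the P level of Psmb9, and with a pseudocount of 2 the difference for Psmb9 to Psmb6 was 2.07. Shares of transcripts are not shares of assembled proteasomes.

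**Figure D3:**
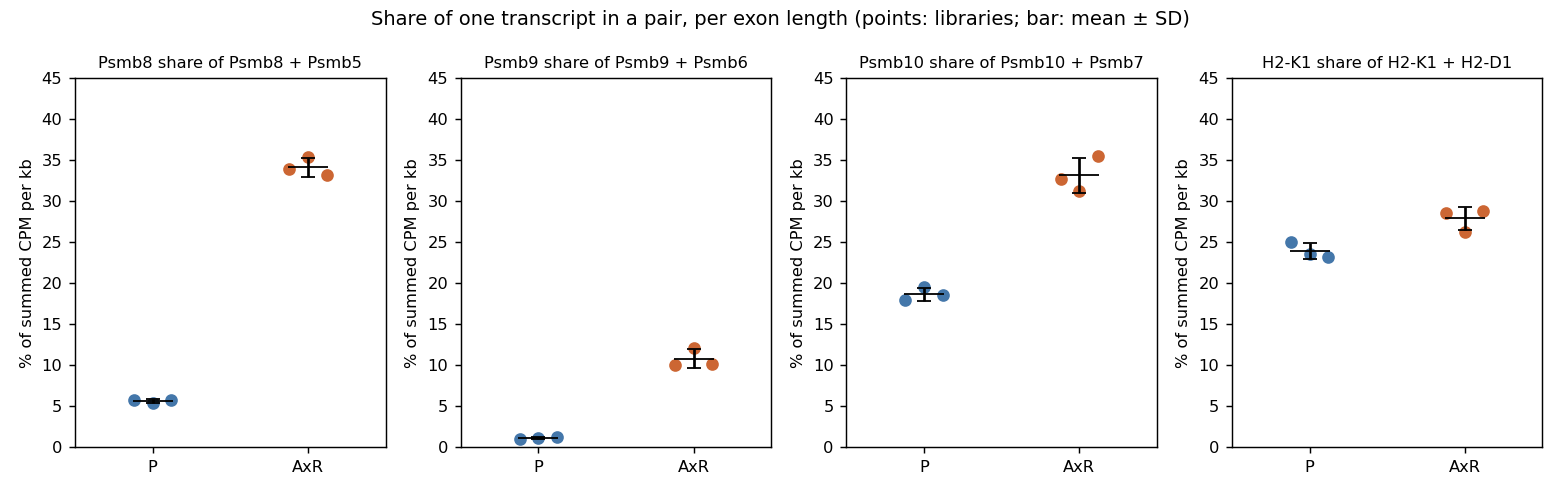
Share of 1 transcript in the summed level of a pair, in percent of CPM per kb, for 3 proteasome pairs and for H2-K1 with H2-D1; points are libraries, and bars give the mean ± SD of 3. The Psmb8 share lies between 5.35% and 5.73% in P libraries and between 33.2% and 35.4% in AxR libraries, and the shift is smallest for H2-K1.

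Psme1 and Psme2 encode the alpha and beta subunits of PA28, a cap that opens the proteasome and favours release of class I peptides. Psme1 rose from 25.8, 24.0 and 26.0 CPM to 77.4, 79.6 and 69.0 CPM, a log2 fold change of 1.57 (SE 0.0714, edgeR adjusted p = 8.20e-11). Psme2 rose from 24.5, 28.2 and 27.1 CPM to 64.5, 64.3 and 57.0 CPM, a log2 fold change of 1.22 (SE 0.075, edgeR adjusted p = 2.27e-09). The subunits thus rose together, and for Psme2 the paralogue Psme2b shares most of the 28.3% of windows found elsewhere.

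Tap1 and Tap2 encode the subunits of the peptide transporter. Tap1 stood at 9.60, 9.53 and 8.35 CPM in P libraries and at 37.2, 40.9 and 41.3 CPM in AxR libraries, a log2 fold change of 2.12 (SE 0.0849, edgeR adjusted p = 2.12e-11). Tap2 stood at 23.6, 22.6 and 22.1 CPM in P and at 105, 117 and 122 CPM in AxR libraries, a log2 fold change of 2.33 (SE 0.0687, edgeR adjusted p = 7.87e-13). Both subunits were over 4-fold higher, and Tap2 was the more abundant per kb in both lines, at 6.02 ± 0.209 against 1.67 ± 0.129 CPM per kb in P and 30.3 ± 2.26 against 7.27 ± 0.410 CPM per kb in AxR cells (SD, n = 3 each). Tap1 shares its promoter region with Psmb9, and their RefSeq starts face away from each other with 225 bases between them. In GENCODE, Tap1 and Psmb9 overlap by 212 bases on opposite strands. Tap2 overlaps Gm15821 and Gm20496 on the opposite strand, and Psmb8 also overlaps Gm20496 on the opposite strand. Gm15821 itself had a log2 fold change of 2.06. Erap1, the peptidase that trims peptides in the endoplasmic reticulum, rose by 0.74 (SE 0.0668, edgeR adjusted p = 1.66e-07), from 53.9, 48.0 and 48.8 CPM to 88.5, 85.6 and 77.2 CPM.

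The loading chaperones did not move as 1 group. Tapbp encodes tapasin, which bridges the transporter and the heavy chain, and stood at 53.5, 52.0 and 54.5 CPM in P libraries and at 252, 278 and 245 CPM in AxR libraries. Its log2 fold change was 2.28 (SE 0.0595, edgeR adjusted p = 2.49e-13). The related peptide editor Tapbpl rose by 1.49 (SE 0.0901, edgeR adjusted p = 1.83e-09), from 8.02, 7.74 and 8.02 CPM to 22.99, 23.08 and 20.9 CPM. Tapbp overlaps Zbtb22 on the same strand, and Tapbpl overlaps Vamp1 on the opposite strand.

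Calr, Pdia3 and Canx encode calreticulin, the disulfide isomerase ERp57 and calnexin, which serve the folding of many glycoproteins besides class I. Calr rose by 0.30 (SE 0.0564, edgeR adjusted p = 2.34e-04), at 238, 245 and 239 CPM in P and 316, 306 and 271 CPM in AxR libraries. Pdia3 rose by 0.25 (SE 0.0598, edgeR adjusted p = 0.00189), at 268, 265 and 279 CPM against 349, 326 and 291 CPM. In both genes AxR replicate 3 was the lowest AxR library and closest to the P range. Canx was at 803, 697 and 783 CPM in P and 881, 833 and 739 CPM in AxR libraries, with overlap between lines and a log2 fold change of 0.10 (SE 0.068, edgeR adjusted p = 0.201). Without AxR replicate 3, Canx passed the test at a log2 fold change of 0.17 and an adjusted p of 0.015.

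Nlrc5 encodes the transactivator that acts on class I promoters. It stood at 23.3, 22.8 and 23.1 CPM in P libraries and at 33.9, 39.6 and 39.7 CPM in AxR libraries. Its log2 fold change of 0.71 (SE 0.0776, edgeR adjusted p = 1.24e-06) was smaller than the median of the class I genes, and the P libraries were close together while AxR replicate 1 was lower than the other two.

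Other genes of the pathway, from lists of further subunits, peptidases, chaperones and regulators, did not share 1 direction. Of 14 transcriptional regulators of class I genes 13 were tested, of which 6 rose and 3 fell with a median log2 fold change of 0.07. Irf1, an interferon-induced activator, rose by 1.42 from 31.3 ± 1.70 to 83.9 ± 5.57 CPM (SD, n = 3 each), and Rfxap rose by 0.50. Nfyb, Rela and Creb1 fell, with log2 fold changes of -0.58, -0.53 and -0.52. Of 13 further 20S core and activator genes 9 rose and 3 fell, with a median of 0.30. The alpha subunit Psma5 rose by 1.49, Psma1 by 0.60 and Psmb4 by 0.54, whereas Psme3, Psma7 and Psma4 had log2 fold changes of -0.54, -0.26 and -0.24.

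Among 7 other peptidases that act on class I peptides 2 rose, Thop1 by 0.50 and Npepps by 0.49, and 3 fell, Lnpep at -0.44, Tpp2 at -0.23 and Lap3 at -0.22. Of 8 partners of quality control in the endoplasmic reticulum, Hsp90b1 rose by 0.69 and Sec61b by 0.43, and Ganab and Uggt1 fell, at -0.31 and -0.15. The medians of these lists were -0.04 and 0.09, against 1.18 for the processing genes of class I. These 4 lists had 19 genes higher and 11 lower of 41 tested, where 32.8% of all genes were higher and 30.8% lower.

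A list of 13 class I-like heavy chains outside the named set had 5 genes that were high enough to test. The list is not complete, since H2-K2, a class I gene beside H2-K1, was outside it and rose by 1.14 (SE 0.260, edgeR adjusted p = 0.00128). Fcgrt, the neonatal Fc receptor chain, rose by 3.78 from 0.365, 0.116 and 0.326 CPM to 3.56, 3.95 and 3.70 CPM (SE 0.316, edgeR adjusted p = 7.05e-08). Mr1, which presents vitamin B metabolites, rose by 1.37, Hfe by 0.75 and Cd1d1 by 0.67, while Procr, which does not pair with B2m, was lower at -1.07. Of the class II genes, 11 listed genes were found in the file and 2 were tested. Cd74, the invariant chain, rose by 2.36 from 5.90 ± 0.142 to 30.2 ± 5.20 CPM, and H2-DMa did not pass (log2 fold change -0.11, edgeR adjusted p = 0.544). Ciita, the class II counterpart of Nlrc5, was too low to test, at 0, 0.116 and 0 CPM in P libraries and 0.572, 0.319 and 0.398 CPM in AxR libraries.

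On chromosome 17 lie 20 of the tested class I genes, of which 19 rose with a median log2 fold change of 1.60, and 11 of the 13 on other chromosomes rose with a median of 0.71. Of 112 other tested genes within 1 Mb of a heavy chain gene, 49 were higher and 12 were lower, with a median of 0.18. Class II genes and all symbols starting with H2- were left out of these neighbours. Some genes under other symbols that share sequence with class I genes stayed in, among them Gm10499 at 1.25 and Gm11127 at 0.95. The whole of chromosome 17 had a median of 0.18 with 290 of 640 tested genes higher and 98 lower, so that neighbours and chromosome leaned upwards where all genes had 32.8% higher and 30.8% lower. Vwa7 and the antisense gene Gm11131 stood highest among these neighbours, at 2.35 and 2.23, and were named after their values were seen. Gm11131 overlaps H2-Q4 on the opposite strand.

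**Figure D4:**
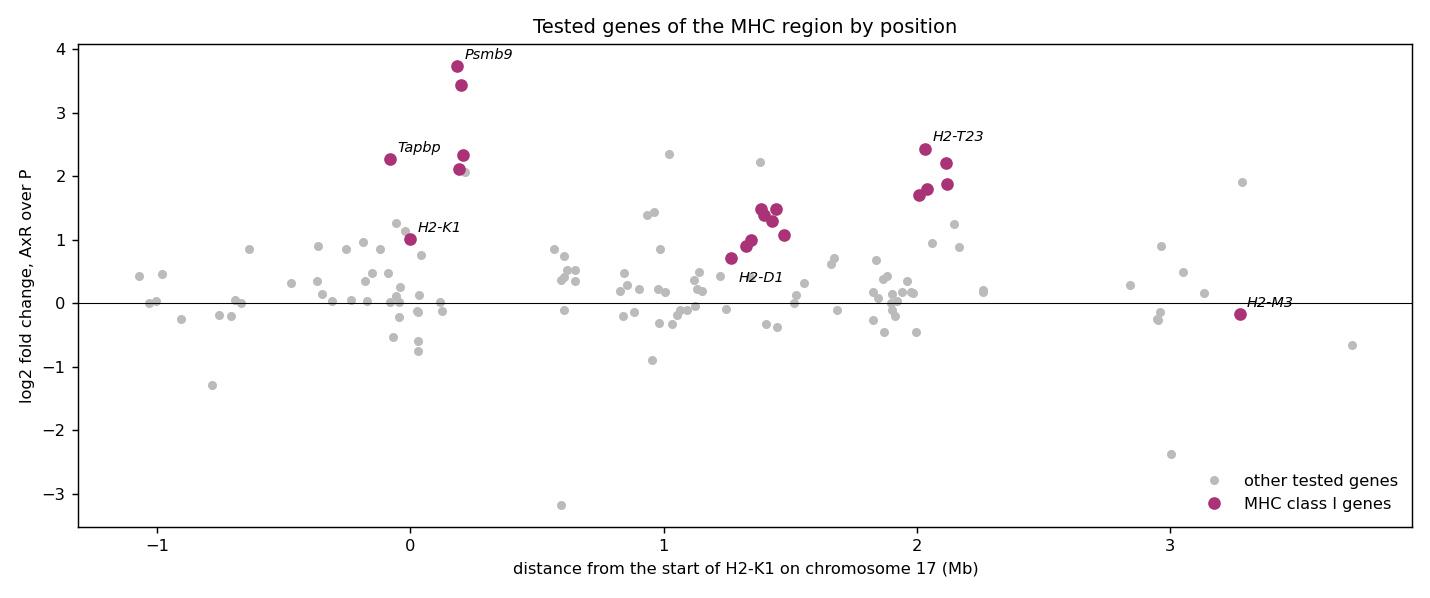
Log2 fold change of tested genes against distance from the start of H2-K1 on chromosome 17 in Mb, with class I genes of the named set in purple and other tested genes, H2-K2 among them, in grey. Class I genes near H2-K1 and in the H2-Q and H2-T groups lie above most of their neighbours, while H2-M3 lies near 0.

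Markers of other cell types were checked because immune cells are rich in class I and immunoproteasome transcripts. None of 18 leukocyte markers was tested. Of these, 16 never exceeded 3 counts in a library and 9, including Cd3e, Cd3d, Cd8a, Tyrobp and Adgre1, had no count at all. Their summed level was 0.365 to 0.577 CPM in P and 0.455 to 0.699 CPM in AxR libraries. Csf1r, Lyz2 and Itgam had the highest mean in either line, the last at 0.0425 CPM in AxR cells, and the pan-leukocyte marker Ptprc had 0.042 CPM in P and 0.0379 CPM in AxR cells. Endothelial markers summed to 0.426 to 0.693 CPM in P and 0.191 to 0.383 CPM in AxR libraries, with Kdr and Emcn at 0 counts, and the highest means were those of Cdh5 and Pecam1 in P and of Vwf in AxR cells. Lung epithelial markers summed to 0.289 to 0.426 and 0.381 to 0.398 CPM, nearly all of it Ager, with little Sftpb and Sftpc and Scgb1a1 at 0. The fibroblast list was lower in AxR libraries, at 10.2 to 11.6 against 22.5 to 24.1 CPM, almost all of it Pdgfra and with little Col1a1 and Pdgfrb. The label of a mammary carcinoma line was matched by high Krt18, Cdh1 and Krt8. This list of 8 genes summed to 1693 to 1859 CPM in P and 2581 to 2664 CPM in AxR libraries, with 6 genes higher and Krt19 lower. Of its basal keratins, Krt5 was at 0, while Krt14 rose from 1.09 ± 0.388 to 5.95 ± 1.84 CPM (SD, n = 3 each). The part of this epithelial shift in the class I result was not tested.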

How the data were processed

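RNA from 3 P and 3 AxR samples was sequenced from stranded, poly(A)-selected libraries. The authors used STAR 2.6.0a for alignment to GRCm38, with GENCODE M16 as annotation, and deposited the estimated counts per gene of RSEM 1.3.1, which divides reads that match several genes and so gives values that need not be whole (10.3% to 10.7% of values in a library were not). FastQC 0.11.5 is also named in the submitters' processing notes. The deposited values precede filtering and normalization.

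Estimated counts were rounded to whole numbers, filtered with filterByExpr, normalized by upper quartile (factors from 0.966 to 1.02) and tested in edgeR 4.0.16 (R 4.3.3) by its robust quasi-likelihood F test, with the line as the only term and Benjamini-Hochberg adjustment over 13550 genes at a threshold of 0.05. Fold changes are log2, AxR over P. CPM is per normalized library size, and CPM per kb divides it by the union of exons in GENCODE M21 on the same build, where 53360 of 53465 identifiers were found. Log2 ratios of 4 gene pairs used a pseudocount of 0.5 and exact permutation tests. Replicates of a line differed by more than sampling noise (their chi-square per degree of freedom lay between 5.06 and 19.4) and all were kept. Floors of 3 counts cover counting error only.

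The text names every class I gene tested, the 3 highest and 3 lowest changes among called genes of each pathway list, and the 3 highest levels of each marker list. Some genes that this rule names are not reported here. Other genes are named as background to a result. The members and lists were chosen with earlier results of these data known. Promoter windows are from RefSeq, and sequences are of the C57BL/6 reference. Windows of 50 bases were compared between transcripts of all genes to find shared sequence. Alternatives were TMM, library size only, DESeq2 1.42.0, limma-voom (limma 3.58.1), no low-count filter, at least 10 counts in every library, a replicate block, each library left out in turn, a log2 fold change of at least 1, and a pseudocount of 2.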

Additional observations from a re-analysis of the deposited data

How the results depend on the processing

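In 561 of 567 comparisons of a value with an alternative the result was kept, and none was reversed. For single genes and the heavy chain sum, this meant the same direction and side of the threshold. Counts of genes had to stay within a set ratio, class medians within the SD between AxR libraries, and pair ratios had to keep their sign. The exceptions were 2 medians of processing genes that moved, 2 counts over all genes that fell, and H2-T24 and Canx, which crossed the threshold. A required log2 fold change of at least 1 left 1083 genes higher and 640 lower over all genes, and 22 class I genes higher and 0 lower. The median log2 fold change of processing genes was 1.16 with library size only, and 1.14 to 1.20 over the fits that each left out 1 library. Where no fold change was required, the number of class I genes higher ran from 28 to 31. It was 28 with at least 10 counts in every library, which tests fewer of them, and 31 without AxR replicate 3. Under every alternative run 0 class I genes were lower. Replicate numbers did not mark pairs, since samples with the same number correlated at -0.0213, -0.0061 and -0.0217. A replicate block gave 4304 genes higher and 4023 lower, and left the number of class I genes higher at 30. Paired by number, the log2 ratios kept their values with an exact p of 0.25, the smallest that 3 pairs allow. With a pseudocount of 2 the log2 ratio of Psmb9 to Psmb6 differed by 2.07 between lines, and the other 3 ratios by 0.29 to 2.87. Genes at the level of H2-T24 and H2-Q2 have few counts, so their fold changes carry the largest errors.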
